A study of Mus musculus with 8 samples.

Results

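Macrophage and leukocyte transcripts were followed in RNA from myofibroblast-labelled cells that had been sorted out of healing mouse skin wounds. The set held 46 gene symbols, found by symbol in the deposited table of all genes, which lists 43346 genes. Of these symbols 45 had a row. Adgre1 had none, and the same gene stood in the table under its older symbol Emr1. Clec7a had a second row, listed at 0 in every library, which brought the rows to 46, and 44 rows reached the filter of 1 TPM in at least 2 libraries and were tested among 15062 genes. The 2 rows left out were that second row and Cd163, the haemoglobin scavenger receptor, which stayed between 0.23 and 1.31 TPM.

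All 8 libraries came from mice of the genotype Sm22-Cre;tdTomato on a mixed background, in which Cre under the Sm22 promoter, which is active in contractile cells, turns on the red protein tdTomato. Viable cells with high tdTomato were sorted after collagenase digestion at 12, 15, 21 or 26 days after wounding, and the 2 libraries of each day were made by SMART-seq2, a full-length cDNA method for little RNA. The reporter marks every cell that has used the Sm22 promoter, so it does not define 1 cell type, and each library is a bulk sample of the sort. The days were compared to ask how the sorted cells change as the wound matures, and no unwounded or unsorted group is used here. The labels do not state whether both libraries of a day are from different mice, and the p-values therefore cover only the spread among these 8 libraries, which may be technical.

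Macrophages are phagocytes that enter a wound as monocytes or arise from resident cells, clear debris and signal to fibroblasts through growth factors. They sense their targets through Fc, lectin and scavenger receptors, many of which signal through the adaptors encoded by Tyrobp and Fcer1g, and they digest what they take up in lysosomes. The transcription factor PU.1, encoded by Spi1, is required for their development, CSF1 and IL-34 keep them alive through the receptor encoded by Csf1r, and MHC class II molecules on their surface and on dendritic cells show peptides to CD4 T cells.

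The values are TPM, transcripts scaled to 1000000 per library. Sequencing depth cannot be read from them and is unknown, which leaves counting error without an interval. Each library had 13135 to 14147 genes at 1 TPM or more. Checked against the label, the fibroblast gene Col1a1 was at 14131 TPM or more in each library and the contractile gene Acta2 at 292 TPM or more, and the defining leukocyte gene Ptprc was low but present in all 8. Acta2 was not constant and averaged 1481 TPM on day 12 and 764, 370 and 513 TPM on days 15, 21 and 26. Xist, transcribed from the inactive X of female cells, lay at or under 0.01 TPM in the libraries of days 12 and 26 and between 4.78 and 30.7 TPM in those of days 15 and 21. For comparisons of a day from each pair, the sex of the animals and the day cannot be told apart. Libraries carry the numbers of the authors' columns and are given in the order 2 and 3 for days 12 and 21, 1 and 3 for day 15, and 1 and 2 for day 26.

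By day mean, most tested transcripts of macrophages and leukocytes were highest on day 12, and most were lowest on day 26. On day 26 against day 12, 35 of the 44 tested members fell and none rose, where 11.8% of all tested genes fell and 5.26% rose. The other 9 did not pass (6 of them had an unadjusted p of 0.05 or more). The median log2 change of the members was -1.99, against -0.20 over all tested genes, which is -1.79 relative to that shift. Trem2, Cd68 and Pla2g7 had the lowest estimates, and the MHC class II genes H2-Ab1, H2-Eb1, H2-Aa and Cd74, with Gpnmb, Ccr2 and Csf1r, had estimates above 0. The members other than MHC class II together summed to 8349 and 5572 TPM at day 12, 2502 and 3424 at day 15, 2472 and 2312 at day 21, and 1397 and 2171 at day 26. The 4 MHC class II genes together summed to 1097 and 884 TPM at day 12, 552 and 1344 at day 15, 1654 and 1714 at day 21, and 1365 and 1836 at day 26. Days 26 and 12 did not overlap in either sum. The first sum was lower and the second higher on day 26. In bulk samples such as these, fewer cells that carry a transcript and less of it per cell cannot be told apart.

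**Figure D1:**
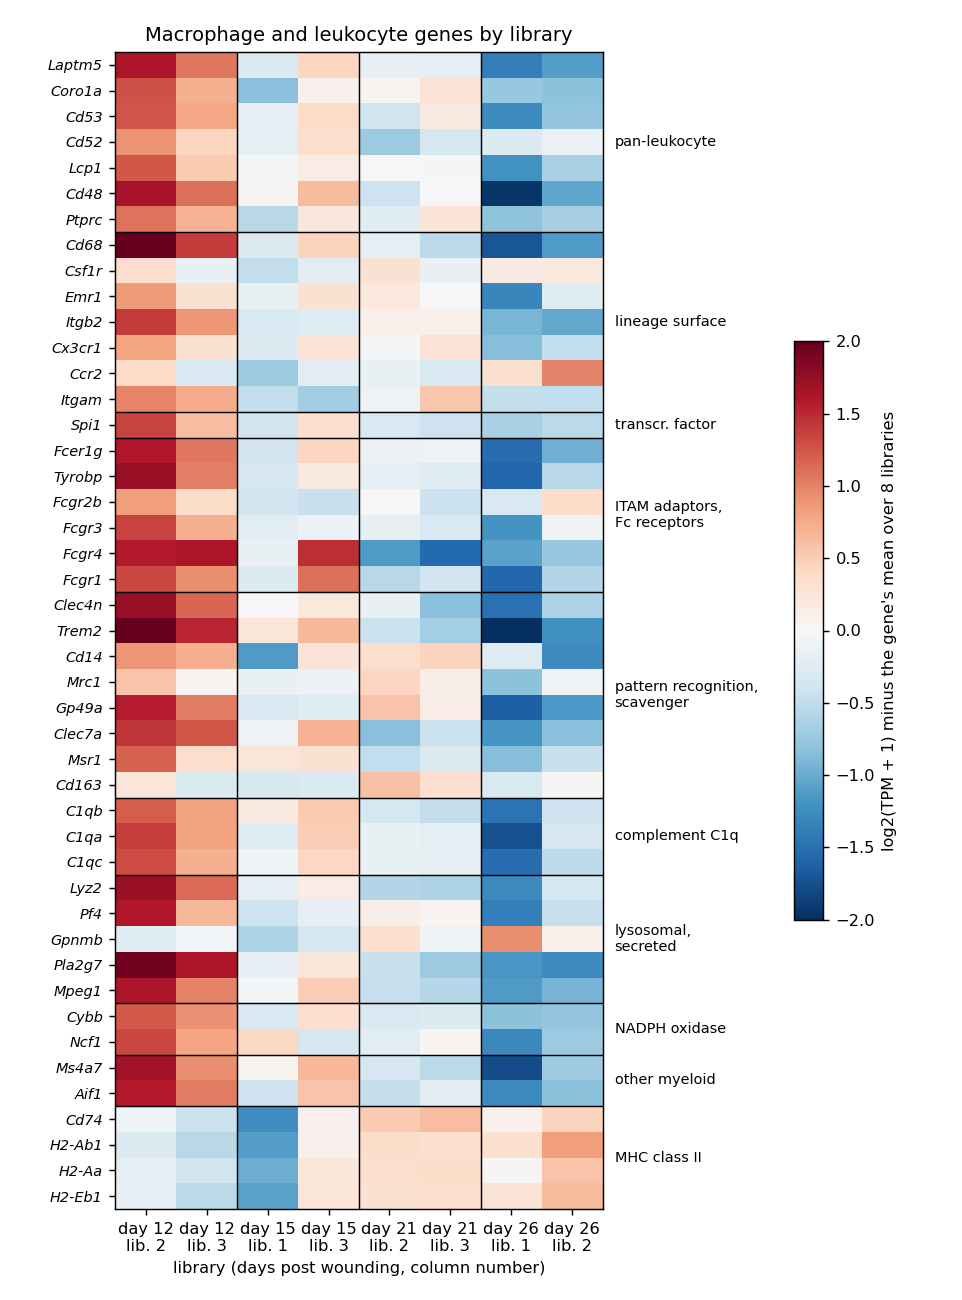
Heat map of the 45 member rows with a level above 0 (rows, grouped by role) in the 8 libraries (columns, by day); the colour is log2(TPM + 1) minus the mean of the gene over the 8 libraries. Most rows are red on day 12 and blue on day 26, and the 4 MHC class II rows at the bottom run the other way, with library 1 of day 15 lowest.

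Of the 35 genes that fell, 21 passed under every alternative setting tried. The count was 21 without library 2 of day 12, the library with the highest level of 37 of the 44 members, and between 29 and 35 without any other single library. The 14 genes that did not pass without that library were C1qa, Cd14, Cd52, Coro1a, Cx3cr1, Emr1, Fcgr1, Fcgr3, Fcgr4, Itgam, Msr1, Ncf1, Ptprc and Spi1. It was 30 without the pair of libraries richest in Xist, 1 of day 15 and 1 of day 21.

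Promoters of a few members are shown here so that genes that fell can be set beside MHC class II genes, which did not pass. They are the 250 bases before the transcription start in RefSeq on GRCm38 (mm10), written 5′ to 3′ in the direction of the gene, for 2 genes that fell and for 2 MHC class II genes. The windows lie at chr11:69666171-69666420 (minus strand) for Cd68, chr17:48346151-48346400 (plus strand) for Trem2, chr17:34287824-34288073 (minus strand) for H2-Aa and chr17:34305617-34305866 (plus strand) for H2-Eb1. Capitals mark GAGGAA, the core letters of the site that PU.1 binds, or GATTGG, the reverse complement of a CCAAT box and part of the Y box of MHC class II promoters, on either strand, so that TTCCTC and CCAATC are their reverse complements. GATTGG was chosen for the search after the values had been seen.
Cd68: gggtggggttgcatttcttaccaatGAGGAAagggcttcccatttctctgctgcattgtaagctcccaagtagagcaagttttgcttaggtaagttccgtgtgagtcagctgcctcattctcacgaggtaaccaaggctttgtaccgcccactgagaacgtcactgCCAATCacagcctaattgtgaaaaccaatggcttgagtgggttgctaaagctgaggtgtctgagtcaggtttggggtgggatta
Trem2: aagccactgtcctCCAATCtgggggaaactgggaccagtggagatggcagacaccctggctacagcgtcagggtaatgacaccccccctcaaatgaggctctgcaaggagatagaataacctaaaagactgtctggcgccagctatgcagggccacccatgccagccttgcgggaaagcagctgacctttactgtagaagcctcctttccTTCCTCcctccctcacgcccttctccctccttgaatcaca
H2-Aa: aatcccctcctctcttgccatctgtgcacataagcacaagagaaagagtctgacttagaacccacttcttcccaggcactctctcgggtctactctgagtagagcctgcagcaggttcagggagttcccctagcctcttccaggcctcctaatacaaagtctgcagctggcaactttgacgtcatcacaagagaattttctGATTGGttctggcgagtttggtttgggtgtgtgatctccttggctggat
H2-Eb1: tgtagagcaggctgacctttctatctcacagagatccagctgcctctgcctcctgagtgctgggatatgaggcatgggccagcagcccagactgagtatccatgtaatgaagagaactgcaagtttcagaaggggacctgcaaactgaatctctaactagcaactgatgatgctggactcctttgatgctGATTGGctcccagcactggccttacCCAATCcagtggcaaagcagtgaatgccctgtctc

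The RefSeq promoter set used here held windows for 33 member genes, 39 windows in all, with Gp49a under its name Lilr4b. It held none for the MHC class II genes H2-Ab1 and Cd74, or for Spi1, Tyrobp and Csf1r, among others. GAGGAA stood in 17 of the 39 windows (43.6%), against 23.3% of the 32817 windows of all genes. It stood in the windows of Cd68 and Trem2 and in neither of the 2 MHC class II windows. The windows did not divide fully by result. Of the 15 member genes with GAGGAA in a window, all but Mrc1 fell, where 35 of the 44 tested members fell. Those that fell were Aif1, C1qb, C1qc, Cd53, Cd68, Clec7a, Fcgr1, Fcgr3, Fcgr4, Itgam, Laptm5, Pf4, Ptprc and Trem2. Genes that fell and had windows without GAGGAA were Cd48, Coro1a, Cx3cr1, Cybb, Fcer1g, Gp49a, Lcp1, Lyz2, Mpeg1, Ms4a7, Ncf1 and Pla2g7. Among other genes that did not pass, Mrc1 held it, and Fcgr2b, Gpnmb and Ccr2 did not. GATTGG stood in 6 member windows (15.4%), against 14.5% of all windows. Both MHC class II windows held it, H2-Aa 49 bases before the start and H2-Eb1 60 and 35 bases before it, and so did those of Cd68 and Trem2, 84 and 237 bases before the start. These are matches of letters and describe the windows only.

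The 7 pan-leukocyte genes all fell on day 26 against day 12, with a median log2 change of -1.81. Ptprc, the gene of the leukocyte phosphatase CD45, had 11.6 and 8.56 TPM at day 12, 3.02 and 5.88 at day 15, 4.0 and 6.09 at day 21, and 2.39 and 2.73 at day 26. Laptm5, the gene of a lysosomal membrane protein of blood cells, had 174 and 117 TPM at day 12, 45.7 and 76.2 at day 15, 49.8 and 49.6 at day 21, and 21.1 and 25.5 at day 26. Both libraries of day 26 lay below every other library for these 2 genes, and both of day 12 lay above. Ptprc averaged 2.56 ± 0.24 TPM on day 26 and 10.1 ± 2.14 TPM on day 12 (SD, n = 2 each), a log2 change of -1.63 (SE 0.33, adjusted p = 0.0118). Laptm5 averaged 23.3 ± 3.17 TPM on day 26 and 146 ± 40.2 TPM on day 12 (SD, n = 2 each), a log2 change of -2.58 (SE 0.26, adjusted p = 0.000643).

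Cd48, encoding a ligand of the SLAM family of lymphocyte and myeloid receptors, had 35.6 and 24.2 TPM at day 12, 11.0 and 17.2 at day 15, 7.81 and 10.8 at day 21, and 2.05 and 4.69 at day 26. Cd53, encoding a leukocyte tetraspanin, had 55.4 and 39.4 TPM at day 12, 19.8 and 29.9 at day 15, 16.8 and 25.6 at day 21, and 8.74 and 12.8 at day 26. In both genes the 2 libraries of day 26 were the lowest of all 8. Coro1a, the gene of an actin-binding coronin of leukocytes, had 60.8 and 40.9 TPM at day 12, 13.4 and 26.22 at day 15, 25.6 and 30.2 at day 21, and 14.2 and 13.5 at day 26. Lcp1, which encodes the actin-bundling protein L-plastin, had 46.3 and 27.9 TPM at day 12, 18.6 and 21.33 at day 15, 19.2 and 18.6 at day 21, and 7.64 and 11.8 at day 26. Cd52, encoding a small glycopeptide anchored to the membrane of leukocytes, had 42.5 and 30.4 TPM at day 12, 19.4 and 28.5 at day 15, 13.1 and 17.2 at day 21, and 18.1 and 20.3 at day 26. Cd52 was lowest on day 21 and had the smallest fall of the 35, a log2 change of -0.87 (SE 0.25, adjusted p = 0.0453). Cd52 overlaps Crybg2, and Coro1a overlaps Bola2, each on the opposite strand, and these libraries carry no strand information, so the share of reads that belongs to each is uncertain.

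Of the 7 tested surface markers of the myeloid lineage 5 fell, and the receptors for CSF1 and for CCL2 did not pass. Cd68, encoding a glycoprotein of late endosomes and a common macrophage marker (ENSMUSG00000018774.9, chromosome 11, 69664213 to 69666153, GRCm38), had 271 and 178 TPM at day 12, 54.5 and 91.3 at day 15, 58.2 and 46.3 at day 21, and 19.7 and 29.9 at day 26. The libraries of no 2 days other than 15 and 21 overlapped. Cd68 averaged 24.8 ± 7.23 TPM on day 26 and 224 ± 65.8 TPM on day 12 (SD, n = 2 each), a log2 change of -3.12 (SE 0.30, adjusted p = 0.000528). Itgb2, encoding the integrin chain CD18 (ENSMUSG00000000290.9, chromosome 10, 77530252 to 77565708), had 32.2 and 22.1 TPM at day 12, 9.20 and 9.52 at day 15, 12.6 and 12.6 at day 21, and 5.71 and 5.21 at day 26. Day 26 was lowest and day 12 highest, with no overlap of either with any other day. Itgb2 averaged 5.46 ± 0.354 TPM on day 26 and 27.1 ± 7.19 TPM on day 12 (SD, n = 2 each), a log2 change of -2.10 (SE 0.22, adjusted p = 0.000789). Itgam, the gene of its partner chain CD11b, had 5.52 and 4.54 TPM at day 12, 1.36 and 1.05 at day 15, 2.08 and 3.81 at day 21, and 1.37 and 1.36 at day 26. Itgam was at its low level on day 15 already, and its span overlaps Gm49368.

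Emr1, the adhesion receptor now named Adgre1, had 38.2 and 25.8 TPM at day 12, 18.6 and 25.8 at day 15, 23.97 and 20.7 at day 21, and 7.77 and 17.2 at day 26. Cx3cr1, the receptor for the chemokine encoded by Cx3cl1, had 7.64 and 5.22 TPM at day 12, 3.10 and 5.12 at day 15, 3.92 and 5.11 at day 21, and 1.77 and 2.58 at day 26. Both fell on day 26 against day 12, by 1.36 and 1.22 on the log2 scale. The annotated span of Cx3cr1 overlaps 9 other genes, so its level is uncertain. Csf1r, the receptor for CSF1 and IL-34, had 75.9 and 53.9 TPM at day 12, 42.2 and 51.5 at day 15, 74.0 and 53.9 at day 21, and 66.8 and 68.8 at day 26. Libraries of days 26 and 12 overlapped, with a log2 change of 0.08 (SE 0.21, adjusted p = 0.829), and the estimate was -0.16 without library 3 of day 12 and 0.33 without library 2 of day 12. Csf1r overlaps Hmgxb3 on the other strand. Ccr2, the receptor through which monocytes follow CCL2, had 4.10 and 2.15 TPM at day 12, 1.35 and 2.34 at day 15, 2.53 and 2.16 at day 21, and 3.88 and 6.75 at day 26. It was low throughout, and days 26 and 12 overlapped, with a log2 change of 0.62 (SE 0.36, adjusted p = 0.274).

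**Figure D2:**
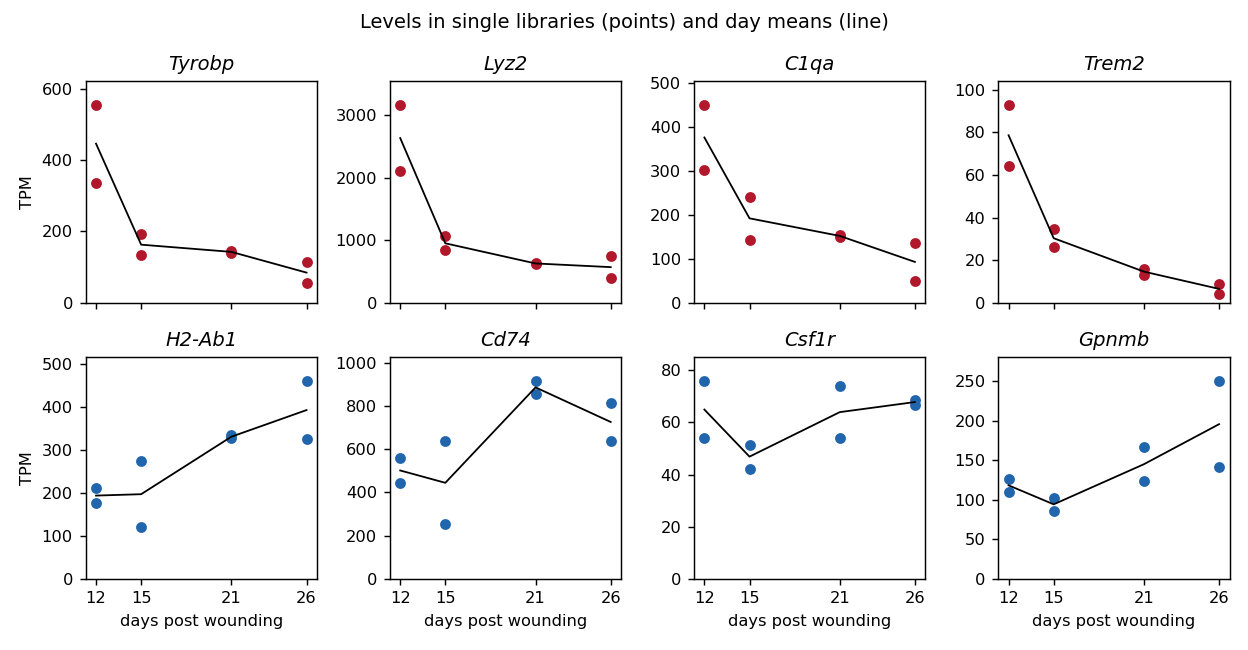
TPM of 8 members (vertical axes, each from 0) against days post wounding, with a point for each library and a line through the day means; red marks genes that fell on day 26 against day 12 and blue those that did not pass. Tyrobp, Lyz2, C1qa and Trem2 drop between days 12 and 15 and again later, H2-Ab1 and Cd74 are higher on days 21 and 26 than on day 12, Csf1r stays between 42.2 and 75.9 TPM, and Gpnmb is highest in library 1 of day 26.

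Spi1, the gene of PU.1, fell with the surface markers. It had 50.8 and 30.3 TPM at day 12, 14.4 and 24.8 at day 15, 15.5 and 14.2 at day 21, and 12.0 and 13.0 at day 26. The libraries of day 12 were the 2 highest, and those of days 21 and 26 lay close together. Spi1 averaged 12.5 ± 0.721 TPM on day 26 and 40.5 ± 14.5 TPM on day 12 (SD, n = 2 each), a log2 change of -1.58 (SE 0.30, adjusted p = 0.00866).

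Among the 2 signalling adaptors and 4 Fc receptors, 5 of 6 fell and the inhibitory receptor did not pass. Tyrobp, encoding the adaptor DAP12, had 555 and 337 TPM at day 12, 134 and 192 at day 15, 146 and 139.5 at day 21, and 55.0 and 114 at day 26. Fcer1g, encoding the common Fc receptor gamma chain (ENSMUSG00000058715.7, chromosome 1, 171229572 to 171234365), had 569.8 and 388 TPM at day 12, 143 and 252 at day 15, 171 and 174 at day 21, and 64.3 and 95.7 at day 26. Both adaptors were highest in the 2 libraries of day 12, and library 1 of day 26 was lowest for both. Fcer1g averaged 80.0 ± 22.2 TPM on day 26 and 479 ± 128 TPM on day 12 (SD, n = 2 each), a log2 change of -2.57 (SE 0.30, adjusted p = 0.00105). Tyrobp averaged 84.5 ± 41.7 TPM on day 26 and 446 ± 154 TPM on day 12, a log2 change of -2.43 (SE 0.35, adjusted p = 0.00261).

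Fcgr1, the high-affinity IgG receptor, had 17.7 and 13.2 TPM at day 12, 5.12 and 14.9 at day 15, 4.05 and 4.70 at day 21, and 1.5 and 3.95 at day 26. Fcgr3, an activating receptor of low affinity, had 139 and 88.4 TPM at day 12, 46.7 and 49.9 at day 15, 48.2 and 43.4 at day 21, and 23.0 and 51.0 at day 26. Fcgr4, another activating receptor, had 23.9 and 24.5 TPM at day 12, 6.47 and 22.0 at day 15, 2.78 and 1.81 at day 21, and 2.94 and 3.88 at day 26. These 3 fell, by 2.21, 1.67 and 2.52 on the log2 scale, with the lowest levels of Fcgr4 on day 21. Library 3 of day 15 was near the day 12 libraries for Fcgr1 and Fcgr4, and library 1 of the same day was not. Fcgr2b, the inhibitory receptor of the family, had 146 and 104 TPM at day 12, 61.9 and 58.8 at day 15, 80.3 and 59.9 at day 21, and 65.2 and 104 at day 26. Days 26 and 12 overlapped narrowly for Fcgr2b, with a log2 change of -0.57 (SE 0.25, adjusted p = 0.158). The ratio of Fcgr2b to Fcgr3 was 1.05 and 1.18 at day 12, 1.33 and 1.18 at day 15, 1.67 and 1.38 at day 21, and 2.84 and 2.05 at day 26. It was higher in both libraries of day 26 than in any other. The Fcgr genes are similar in sequence and lie together on chromosome 1, so the division of reads among them is uncertain.

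Of the 7 tested receptors for microbes, debris and lipids 6 fell. Trem2, a lipid receptor that signals through the Tyrobp product (ENSMUSG00000023992.10, chromosome 17, 48346401 to 48354147), had 92.9 and 64.3 TPM at day 12, 26.0 and 34.5 at day 15, 15.96 and 13.2 at day 21, and 4.22 and 8.76 at day 26. No library of one day overlapped with those of another. Trem2 averaged 6.49 ± 3.21 TPM on day 26 and 78.6 ± 20.2 TPM on day 12 (SD, n = 2 each), a log2 change of -3.46 (SE 0.31, adjusted p = 0.000402), the lowest estimate of the set. Gp49a, an immunoglobulin-like receptor (ENSMUSG00000089672.4), had 34.1 and 22.9 TPM at day 12, 8.54 and 9.02 at day 15, 16.5 and 12.1 at day 21, and 2.82 and 4.30 at day 26. It was higher on day 21 than on day 15 and lowest on day 26. Gp49a averaged 3.56 ± 1.05 TPM on day 26 and 28.5 ± 7.97 TPM on day 12 (SD, n = 2 each), a log2 change of -2.69 (SE 0.27, adjusted p = 0.000643), and it shares sequence with Lilrb4, so its level is uncertain.

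Clec4n, encoding the fungal receptor dectin-2, had 137 and 92.9 TPM at day 12, 41.0 and 47.4 at day 15, 36.4 and 22.2 at day 21, and 13.8 and 25.8 at day 26. Clec7a, encoding the beta-glucan receptor dectin-1, had 20.7 and 18.1 TPM at day 12, 6.50 and 12.0 at day 15, 3.5 and 4.94 at day 21, and 2.55 and 3.48 at day 26. Msr1, a class A scavenger receptor, had 11.3 and 5.97 TPM at day 12, 5.48 and 5.73 at day 15, 2.88 and 3.46 at day 21, and 2.03 and 3.01 at day 26. All 3 fell, by 2.51, 2.35 and 1.41 on the log2 scale, and in Clec7a and Msr1 day 21 was already close to day 26. Cd14, the co-receptor for lipopolysaccharide, had 27.3 and 24.3 TPM at day 12, 5.98 and 17.3 at day 15, 18.6 and 19.9 at day 21, and 11.8 and 5.37 at day 26. Cd14 was low in library 1 of day 15 and in library 2 of day 26, and its fall, a log2 change of -1.56 (SE 0.45, adjusted p = 0.0448), is among those that did not hold under every setting. Mrc1, the mannose receptor CD206, had 21.24 and 14.6 TPM at day 12, 12.5 and 12.9 at day 15, 19.2 and 15.5 at day 21, and 7.47 and 13.2 at day 26. Mrc1 averaged 10.4 ± 4.08 TPM on day 26 and 17.9 ± 4.72 TPM on day 12 (SD, n = 2 each), a log2 change of -0.76 (SE 0.29, adjusted p = 0.106), and did not pass although the libraries of the 2 days did not overlap.

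The 3 chains of complement C1q, the recognition unit that starts the classical pathway and that macrophages secrete, all fell. Their genes lie side by side on the minus strand of chromosome 4, from 136880129 to 136898803. C1qa had 451 and 302 TPM at day 12, 144 and 241 at day 15, 154 and 150.0 at day 21, and 50.3 and 136 at day 26. C1qb had 459 and 347 TPM at day 12, 227 and 286 at day 15, 155 and 142 at day 21, and 70.7 and 149 at day 26. C1qc had 380.5 and 252 TPM at day 12, 145 and 205 at day 15, 137 and 136 at day 21, and 52.8 and 106 at day 26. Each chain was highest on day 12 and lowest in library 1 of day 26, and the 2 libraries of day 26 differed more than those of day 21. The changes on day 26 against day 12 were -2.14 (SE 0.42), -1.95 (SE 0.31) and -2.04 (SE 0.32) in log2 for C1qa, C1qb and C1qc, with adjusted p = 0.0104, 0.00404 and 0.00409. The ratio of C1qa to C1qc stayed between 0.952 and 1.28 over the 8 libraries.

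Of the 5 lysosomal and secreted products 4 fell. Lyz2, encoding the lysozyme of macrophages (ENSMUSG00000069516.7, chromosome 10, 117277331 to 117282321), had 3163 and 2100 TPM at day 12, 837 and 1062 at day 15, 635 and 619.5 at day 21, and 394 and 744 at day 26. It was the highest member on days 12 and 15, and Cd74 was higher in every library of days 21 and 26. Day 12 stood above all other days, and library 2 of day 26 was above both libraries of day 21. Lyz2 averaged 569 ± 248 TPM on day 26 and 2631 ± 752 TPM on day 12 (SD, n = 2 each), a log2 change of -2.25 (SE 0.30, adjusted p = 0.00192). Its paralog Lyz1 lay between 2.74 and 29.7 TPM, and the division of reads between them is uncertain. Pla2g7, the gene of the enzyme that breaks down platelet-activating factor (ENSMUSG00000023913.13, chromosome 17, 43568098 to 43612201), had 106 and 85.7 TPM at day 12, 24.1 and 32.3 at day 15, 19.6 and 15.97 at day 21, and 11.5 and 10.8 at day 26. The 4 days did not overlap. Pla2g7 averaged 11.1 ± 0.537 TPM on day 26 and 95.8 ± 14.2 TPM on day 12 (SD, n = 2 each), a log2 change of -2.99 (SE 0.20, adjusted p = 0.000121), the lowest adjusted p of the set. An annotated antisense RNA, 1700071M16Rik, overlaps it, and Lcp1, Fcgr2b and H2-Eb1 likewise overlap antisense RNAs.

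Mpeg1, encoding the pore-forming protein perforin-2 (ENSMUSG00000046805.9, chromosome 19, 12460779 to 12465283), had 51.4 and 32.8 TPM at day 12, 15.8 and 22.9 at day 15, 11.4 and 10.4 at day 21, and 6.71 and 7.97 at day 26. The days did not overlap, and Mpeg1 averaged 7.34 ± 0.891 TPM on day 26 and 42.1 ± 13.1 TPM on day 12 (SD, n = 2 each), a log2 change of -2.34 (SE 0.26, adjusted p = 0.000957). Pf4, a chemokine gene of platelets and macrophages, had 614 and 323 TPM at day 12, 152 and 181 at day 15, 221 and 208 at day 21, and 77.9 and 147 at day 26. Pf4 fell by 2.05 on the log2 scale, and library 2 of day 12 stood far above library 3. Gpnmb, a glycoprotein of lysosome-laden macrophages and of melanocytes, had 110.3 and 126 TPM at day 12, 85.7 and 103 at day 15, 166 and 124 at day 21, and 250.64 and 141 at day 26. Gpnmb averaged 196 ± 77.6 TPM on day 26 and 118 ± 11.3 TPM on day 12 (SD, n = 2 each), a log2 change of 0.67 (SE 0.26, adjusted p = 0.12), and its level on day 26 rested mainly on library 1, without which the log2 change was 0.25. Without library 2 of day 26 it was 1.08 and passed (adjusted p = 0.0174). The melanocyte gene Mlana, looked up beside it after the values had been seen, had 0 and 0 TPM at day 12, 0.37 and 3.22 at day 15, 2.19 and 0.82 at day 21, and 2.36 and 2.64 at day 26. The melanocyte genes Pmel and Dct, looked up with Mlana, were lower on day 26. Pmel had 1.03 and 1.05 TPM at day 12 and 0.87 and 0.05 at day 26. Dct had 0.17 and 0.26 TPM at day 12 and 0.05 and 0 at day 26. The part of melanocytes in the level of Gpnmb was not tested.

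Cybb, the catalytic subunit of the phagocyte NADPH oxidase, had 23.1 and 18.4 TPM at day 12, 7.34 and 12.0 at day 15, 7.33 and 7.51 at day 21, and 4.84 and 4.94 at day 26. Ncf1, its cytosolic organiser, had 15.4 and 10.3 TPM at day 12, 7.62 and 4.15 at day 15, 4.58 and 5.71 at day 21, and 1.65 and 2.93 at day 26. Both fell, by 1.88 and 2.07 on the log2 scale. Ncf1 overlaps Gtf2ird2 on the opposite strand. Of the 2 remaining myeloid genes, Aif1, which encodes the calcium-binding protein IBA1, had 85.3 and 58.2 TPM at day 12, 20.4 and 41.7 at day 15, 19.5 and 23.9 at day 21, and 10.8 and 15 at day 26. Ms4a7, a membrane protein of the MS4A family, had 181 and 107 TPM at day 12, 58.2 and 89.1 at day 15, 43.9 and 38.2 at day 21, and 15.5 and 33.8 at day 26. They fell by 2.36 and 2.55 on the log2 scale, and in each the 2 libraries of day 12 were the highest.

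**Figure D3:**
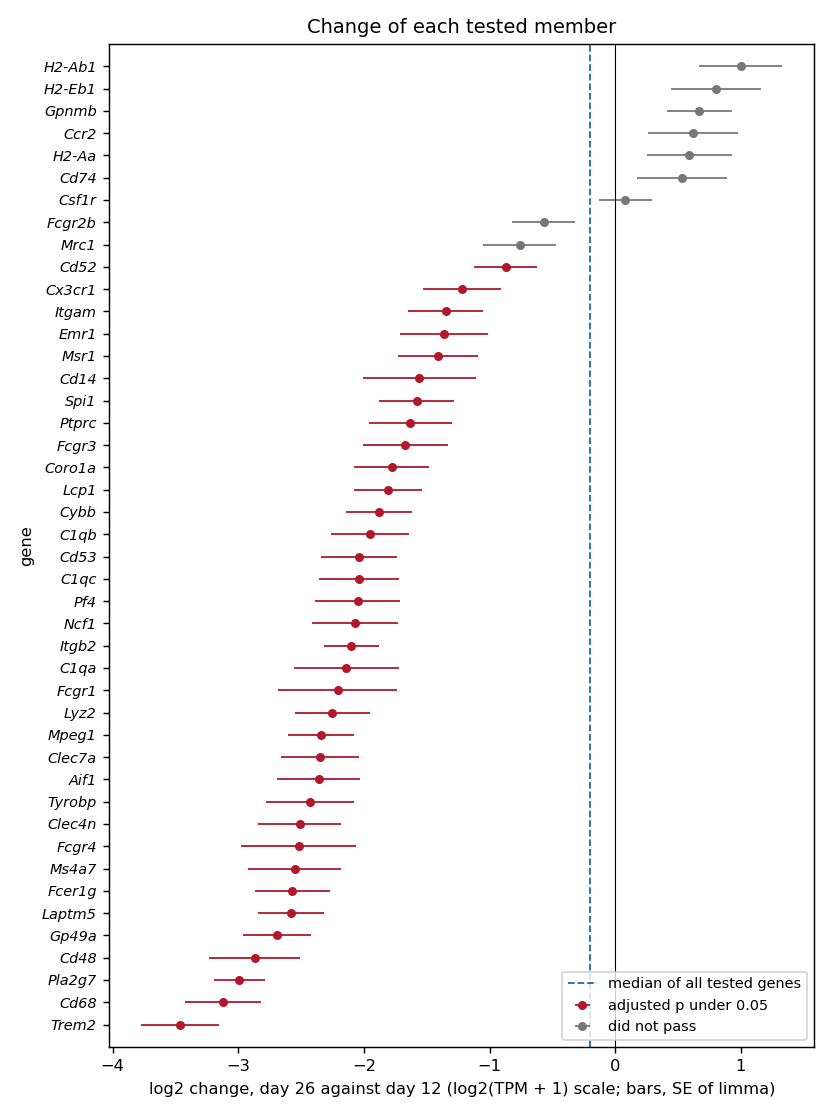
Log2 change of day 26 against day 12 on the log2(TPM + 1) scale for the 44 tested members, one row each, with the SE of the limma fit as a bar; red rows passed at an adjusted p under 0.05 and grey rows did not, and the dashed line is the median of all tested genes, -0.20. All 35 red rows lie below 0, from -0.87 (Cd52) to -3.46 (Trem2).

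None of the 4 MHC class II genes fell. H2-Aa and H2-Ab1 encode the chains of the I-A molecule, H2-Eb1 the beta chain of I-E, and Cd74 the invariant chain that holds the groove until a peptide is loaded. The 3 H2 genes lie between 34257689 and 34316674 on chromosome 17 and Cd74 on chromosome 18. Cd74 had 560.0 and 442 TPM at day 12, 252 and 636 at day 15, 855 and 915 at day 21, and 636 and 814 at day 26. H2-Ab1 had 212 and 176 TPM at day 12, 120.3 and 274 at day 15, 335 and 328 at day 21, and 325 and 462 at day 26. H2-Aa had 167 and 145 TPM at day 12, 96.9 and 226 at day 15, 245 and 247 at day 21, and 194 and 285 at day 26. For each of these, both libraries of days 21 and 26 were above both libraries of day 12, while the 2 libraries of day 15 stood far apart, with library 1 the lowest of all 8. H2-Eb1 had 157 and 121 TPM at day 12, 83.2 and 208 at day 15, 219 and 223 at day 21, and 210.1 and 275 at day 26, and followed the same course.

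H2-Ab1 averaged 394 ± 96.4 TPM on day 26 and 194 ± 26.06 TPM on day 12 (SD, n = 2 each), a log2 change of 1.00 (SE 0.33, adjusted p = 0.0746). Cd74 averaged 725 ± 126 TPM on day 26 and 501 ± 83.5 TPM on day 12 (SD, n = 2 each), a log2 change of 0.53 (SE 0.36, adjusted p = 0.346). H2-Eb1 and H2-Aa had log2 changes of 0.80 (SE 0.36, adjusted p = 0.165) and 0.59 (SE 0.34, adjusted p = 0.273). None of the 4 passed in any of the 6 pairs of days. The spread of the 2 libraries of day 15 enters the shared error of the fit. Without one or the other of these libraries H2-Ab1 and H2-Eb1 passed as higher on day 26 than on day 12, and with only the libraries of days 21 and 12 in the fit all 4 passed as higher on day 21. The adjusted p of H2-Ab1 on day 26 against day 12 lay between 0.0105 and 0.251 over the alternatives.

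Ratios within a library show the 2 courses beside each other. Taken over Tyrobp, H2-Ab1 was 0.382 and 0.521 at day 12, 0.897 and 1.43 at day 15, 2.29 and 2.35 at day 21, and 5.92 and 4.05 at day 26. Cd74 over Tyrobp was 1.01 and 1.31 at day 12, 1.88 and 3.32 at day 15, 5.86 and 6.56 at day 21, and 11.6 and 7.15 at day 26. Both ratios were lowest in the libraries of day 12 and highest in those of day 26, with no overlap between any 2 days. Fcer1g over Tyrobp, by contrast, lay between 0.84 and 1.32 in all 8 libraries, C1qa over Tyrobp between 0.811 and 1.26, and Lyz2 over Tyrobp between 4.36 and 7.16. Trem2 over Tyrobp was 0.167 and 0.191 at day 12, 0.194 and 0.18 at day 15, 0.109 and 0.0949 at day 21, and 0.0768 and 0.0768 at day 26, lower on days 21 and 26 than before. Csf1r over Tyrobp was 0.137 and 0.16 at day 12, 0.315 and 0.268 at day 15, 0.507 and 0.386 at day 21, and 1.22 and 0.603 at day 26, again highest on day 26. Tyrobp itself fell, so the ratio of a gene that fell less, or did not fall, is higher on day 26. Gpnmb over Tyrobp was 0.199 and 0.375 at day 12 and 4.56 and 1.24 at day 26. Mrc1 over Tyrobp was 0.0382 and 0.0432 at day 12 and 0.136 and 0.116 at day 26. These ratios are descriptions, and with 2 libraries a day no exact test of a ratio between 2 days could reach 0.05.

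**Figure D4:**
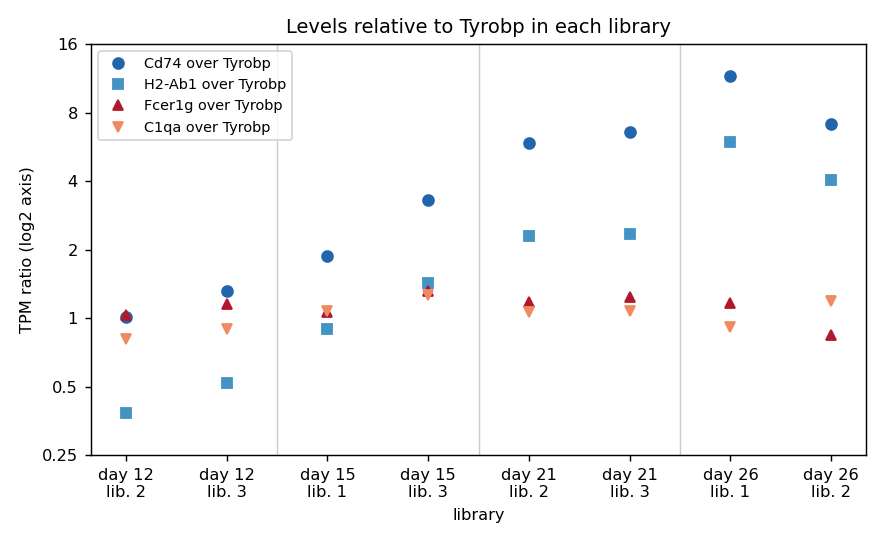
TPM of Cd74, H2-Ab1, Fcer1g and C1qa divided by the TPM of Tyrobp in the same library (vertical log2 axis) for the 8 libraries in order of day. The ratios of Cd74 and H2-Ab1 climb from day 12 to day 26, to 11.6 and 5.92 in library 1 of day 26, and those of Fcer1g and C1qa stay between 0.811 and 1.32.

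Between neighbouring days few members passed. On day 15 against day 12 all 44 estimates were below 0, with a median log2 change of -1.02 against 0.02 over all tested genes, but only Pla2g7 fell (log2 change -1.73, SE 0.20, adjusted p = 0.0467), where 0.073% of all tested genes fell and 0.0863% rose. The libraries of 37 members did not overlap and were lower on day 15, against 17.8% of all tested genes. On day 21 against day 15 none of the 44 rose or fell, where 0.91% of all tested genes fell and 0.491% rose (1.4% in either direction). The limma test there gave 12 members an unadjusted p under 0.05, a count that was not made over all tested genes. The median was -0.15 against -0.10 over all genes. Between days 26 and 21 only Gp49a fell (log2 change -1.75, SE 0.27, adjusted p = 0.04997), where 0.219% of all tested genes fell and 0.0996% rose, and the median was -0.70 against -0.09. The libraries of 30 members did not overlap and were lower on day 26, against 31.8% of all tested genes. These medians moved with single libraries. Without library 1 of day 15 they were -0.66 for day 15 against day 12 and -0.47 for day 21 against day 15. Without library 3 of day 15 the median of day 21 against day 15 was 0.08, and without library 1 of day 26 that of day 26 against day 21 was -0.35. Among the fits that left out 1 library, Pla2g7 passed on day 15 without library 3 of day 15 or either library of day 26, and in no other. Gp49a passed without library 3 of day 12 and in no other.

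Over longer intervals more members passed. Between days 21 and 12, 21 members fell and none rose, where 6.69% of all tested genes fell and 3.63% rose, and the median was -1.17 against -0.07. The libraries of 36 members did not overlap and were lower on day 21, against 34.6% of all tested genes, and those of 4 members were higher, against 23.2%. Fcgr4 had the lowest estimate in that interval, a log2 change of -2.95 (SE 0.46, adjusted p = 0.00707). Without library 2 of day 12 the count was 3, without library 2 or 3 of day 21 it was 7 or 3, and without any other single library it lay between 16 and 27. It was 3 without the pair richest in Xist. Between days 26 and 15, 11 members fell and none rose, where 4.43% of all tested genes fell and 1.83% rose, and the median was -0.89 against -0.21. Without library 3 of day 15 the count was 1 and Cd74, H2-Aa, H2-Ab1 and H2-Eb1 passed as higher. Without library 1 of day 26 it was 2, without either library of day 21 it was 5, without library 2 of day 12 it was 7, and without the other 3 it lay between 8 and 14. It was 1 without the pair richest in Xist. All 21 and all 11 of these genes were among the 35. The comparisons share libraries and are not independent. By the F test over the 4 days 31 of 44 members passed, where 12.4% of all tested genes did.

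The day means of 37 members were highest on day 12 and those of 33 lowest on day 26, and 24 fell at each step. These counts were not made over all tested genes, so no share stands beside them. Within a day most members differed in the same direction. Library 2 of day 12 was above library 3 for 42 of the 44 tested members, against 54.4% of all tested genes. Library 3 of day 15 was above library 1 for 41 of 44, against 27.4% of all genes. Library 2 of day 26 was above library 1 for 38 of 44, against 57.8%. On day 21 library 2 was above library 3 for 25 of 44, against 61.6%. The median difference between the libraries of days 12, 15 and 26 was 0.53, 0.52 and 0.50 in log2 over the members.

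Other genes of macrophages and myeloid cells, from a list of 55 that holds no member, are given beside them. Of 51 tested, 35 fell and none rose on day 26 against day 12, with a median log2 change of -1.69. C3ar1, the receptor for the complement fragment C3a, had 23.9 and 16.7 TPM at day 12, 7.0 and 11.7 at day 15, 4.87 and 4.28 at day 21, and 1.22 and 1.46 at day 26. Cd84, a SLAM family receptor, had 32.0 and 21.0 TPM at day 12, 7.95 and 9.21 at day 15, 4.79 and 6.25 at day 21, and 2.88 and 3.17 at day 26. Lilrb4, an inhibitory receptor related to Gp49a, had 54.3 and 39.4 TPM at day 12, 13.1 and 18.5 at day 15, 17.9 and 15.6 at day 21, and 5.76 and 8.42 at day 26. All 3 fell with no overlap between days 26 and 12, with log2 changes of -3.16, -2.74 and -2.57. The phagocyte gene Mertk, named after its values were seen, did not pass, with a log2 change of -0.28 (adjusted p = 0.418).

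Of 10 genes for ligands of the member receptors, 3 rose and 3 fell. Csf1, the growth factor that signals through Csf1r, had 23.8 and 23.6 TPM at day 12, 35.9 and 30.5 at day 15, 57.6 and 53.3 at day 21, and 59.1 and 56.8 at day 26. It rose, a log2 change of 1.26 (SE 0.15, adjusted p = 0.00125), with days 21 and 26 above days 12 and 15. Cx3cl1, the ligand of Cx3cr1, rose with a log2 change of 1.03 (SE 0.25, adjusted p = 0.0247). Ccl7, a ligand of Ccr2, had 198 and 184 TPM at day 12, 97.6 and 139 at day 15, 110.1 and 113 at day 21, and 100.2 and 97.6 at day 26. Ccl7 fell, a log2 change of -0.94 (SE 0.17, adjusted p = 0.00762), and Ccl2 did not pass, at 0.27 (adjusted p = 0.446).

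Of 8 genes that load or regulate MHC class II, 5 were tested and 1 rose. H2-DMb1, a chain of the peptide exchange factor, had 17.9 and 16.8 TPM at day 12, 17.9 and 24.5 at day 15, 30.8 and 24.5 at day 21, and 27.8 and 45.3 at day 26. It rose on day 26 against day 12, a log2 change of 1.00 (SE 0.26, adjusted p = 0.0313). Ciita, the master regulator of these genes, lay between 0.41 and 1.67 TPM, with a log2 change of 0.30 (SE 0.30, adjusted p = 0.533). Ifi30, a reductase that prepares peptides for class II, had a log2 change of -0.28 (SE 0.20, adjusted p = 0.354).

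Markers of other cell types that a sort from a wound can hold are given beside these results. Of 12 dendritic and Langerhans cell genes, 7 were tested and Mgl2, a lectin of dendritic cells and macrophages, rose. Mgl2 had 4.64 and 3.48 TPM at day 12, 3.12 and 8.83 at day 15, 21.16 and 23.99 at day 21, and 14.6 and 24.5 at day 26. It was above its day 12 level in every library of days 21 and 26, with a log2 change of 1.99 (SE 0.40, adjusted p = 0.0119). The defining genes Flt3, Xcr1, Clec9a and Cd207 were at or under 0.5 TPM in all libraries, and the summed level of the list was 32.8 and 61.6 TPM on day 26 and 29.9 and 25.5 TPM on day 12. The part of such cells in the MHC class II levels was not tested. Of 22 T, NK and B cell genes, 13 were under 1 TPM in all libraries, and of 6 tested Cd4 and Il7r fell, with log2 changes of -1.51 and -1.41. The list summed to 8.58 and 7.55 TPM on day 26 and to 25.1 and 14.9 TPM on day 12.

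Of 12 neutrophil genes, 6 were tested, and 1 passed in each direction. Mmp8, a collagenase of neutrophils, rose with a log2 change of 3.40 (SE 0.29, adjusted p = 0.000326), and Csf3r, the receptor for G-CSF, fell with a log2 change of -1.45 (SE 0.28, adjusted p = 0.0102). Ly6g was listed at 0 in every library, and S100a8 lay between 0.32 and 9.55 TPM. The summed level of that list was 28.9 and 36.4 TPM on day 26 and 28.5 and 15.7 TPM on day 12. Most of the day 26 sum was Mmp8, with 22.6 and 31.4 TPM on day 26 and 1.41 and 1.85 TPM on day 12. The other tested genes of the list, S100a8, S100a9, Cxcr2, Csf3r and Mpo, had estimates below 0. Mast cell genes summed to 8.01 and 12.6 TPM at day 12, 67.0 and 47.2 at day 15, 122 and 230.1 at day 21, and 4.86 and 26.6 at day 26. None of 6 tested passed on day 26 against day 12, and 5 rose on day 21 against day 12. All 12 tested keratinocyte genes rose, among them Krt15, Krt5 and Krt17 with log2 changes of 4.97, 5.86 and 6.48, and that list summed to 7.79 and 6.62 TPM at day 12, 41.4 and 96.04 at day 15, 116 and 151 at day 21, and 387 and 695 at day 26. Of 11 fibroblast and myofibroblast genes 5 rose, among them Dcn, Col3a1 and Col1a2 with log2 changes of 1.79, 1.24 and 1.15. The 2 that fell were Acta2 and Postn, with log2 changes of -1.57 and -1.17 (adjusted p = 0.0156 and 0.0109). Tagln did not pass, with a log2 change of -1.13 (adjusted p = 0.05995). That list summed to 109100 and 98700 TPM on day 26 and to 43420 and 57940 TPM on day 12. None of 10 endothelial genes, which summed to between 59.2 and 135.2 TPM, or of 7 pericyte genes, which summed to between 361 and 1943 TPM, passed. As TPM share a fixed sum per library, the part of these shifts in the fall of the members was not tested. With quantile normalization and with median scaling of the libraries, which moved the median of all genes to -0.01 and 0.03, the medians of the members were -1.81 and -1.76.

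**Figure D5:**
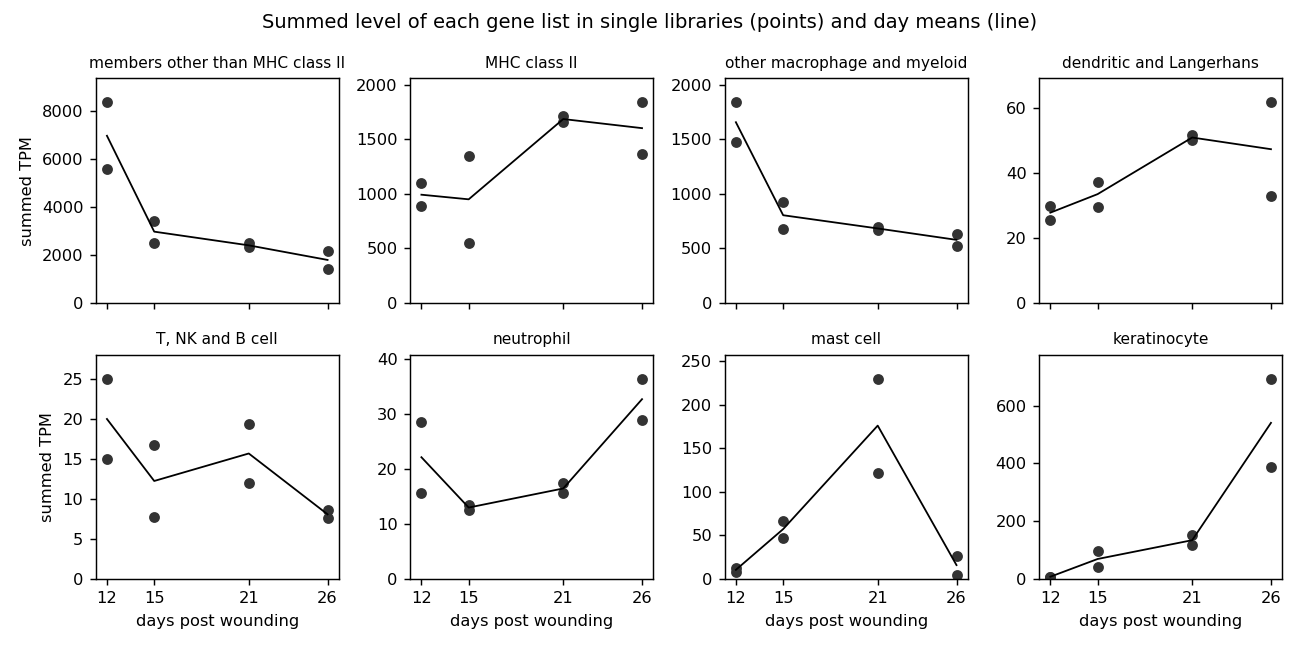
Summed TPM of 8 gene lists (vertical axes, each from 0) against days post wounding, with a point for each library and a line through the day means. The members other than MHC class II and the other macrophage genes are highest on day 12, and mast cell genes peak on day 21. Keratinocyte genes are highest on day 26. The sums of MHC class II and of the dendritic and Langerhans list are higher on day 21 than on day 12. Within the latter list Mgl2, Cd209a, Clec10a and Cd24a have estimates above 0 for these days, and Ccr7, Batf3 and Zbtb46 below 0.

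In the authors' deposited table of clusters, made from these same libraries, 25 of the 45 members with a level above 0 (55.6%) stood among 4120 genes, which are 16.1% of the 25556 genes with a level above 0. Cluster C1 held 14 of them, 31.1% of the members against 5.53% of all these genes, and 0.992% of the cluster, with fold changes from -8.0 (Pla2g7) to -1.8 (Cd52) in the authors' deposited table. Cluster C2 held 10, 22.2% of the members against 4.87% of all these genes, and 0.804% of the cluster, with folds from -10.6 (Trem2) to -4.0 (C1qa and C1qc) in the authors' deposited table. H2-Ab1 was the single member in cluster C4, with a fold of 2.0 and a p-value of 0.0478 in the authors' deposited table, and clusters C3 and C5 held none. The 20 members outside the clusters included Ptprc, Csf1r, Itgb2, Gp49a and the other MHC class II genes.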

How the data were processed

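Deposited were 1 table of all genes with 8 value columns and 5 tables of the authors' clusters. No column of the main table held a value under 1, and each summed to 1000000 once 1 was taken off every gene, so the signal deposited by the authors is TPM plus 1, and 1 was subtracted. RSEM 1.12.2 and the build mm10 stand in the submitters' processing notes, while neither aligner nor annotation is given in the sources used here. Columns name a day, not a labelled sample, and were assigned to days only. The cluster tables hold a p-value and a signed fold change (a score) per gene, per the file headers, and 40 further value columns in them were not used. TPM keep no depth, so precision rests on 2 libraries a day.

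The 15062 genes that reached 1 TPM in 2 or more libraries were fitted on log2(TPM + 1) with limma 3.58.1 in R 4.3.3, with day as a factor, a trend and 2-sided moderated tests (4 residual and 4.76 prior degrees of freedom), after the code was tested on simulated data. P-values were adjusted by Benjamini-Hochberg over all tested genes within each pair of days, at a threshold of 0.05. Fold changes on this scale understate those of low genes. SMART-seq2 keeps no strand, so overlapping genes share reads. Positions are from GENCODE vM21 on GRCm38.

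The members and lists were chosen with earlier results of these data known. Values per library are given for every tested member, and tests for the 8 lowest adjusted p on day 26 against day 12 and for Ptprc, Csf1r, Spi1, Lyz2, Cd74 and Mrc1. Up to 3 genes of each other list with the lowest p are named. Further tests printed were chosen after their values were seen. So were Xist, Col1a1, Acta2, Tagln, Postn, Mlana, Pmel, Dct, Lyz1, Ciita, Ccl2, Mertk and the marker genes given as low. Alternatives were pseudocounts of 0.1 and 5, no filter or one of 5 TPM, quantile and median scaling, no trend, only the 2 days compared, each library left out, and the pair of libraries of days 15 and 21 with the most Xist left out.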

Additional observations from a re-analysis of the deposited data

How the results depend on the processing

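On day 26 against day 12 the members that fell numbered 26 to 35 under the alternatives that kept all libraries or left out the pair with the most Xist. All genes called there were 1667 with no filter and 1590 with only the 2 days in the fit. One member, H2-Ab1, passed as higher in that last fit and without the Xist pair (1 each).

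For the other pairs of days the counts depended on the setting. On day 15 against day 12 genes called were 3 with no filter, 4 with quantile normalization, 3 with median scaling, 1 without the trend, and 0 with only the 2 days or without the Xist pair, and members that fell were 0 in all 6. On day 21 against day 15 genes called were 134 with a pseudocount of 0.1, 44 with no filter, 122 with median scaling, 51 without the trend, 16 with only the 2 days and 0 without the Xist pair. Between days 26 and 21 they were 15 with a pseudocount of 0.1, 10 with no filter, 28 with a filter of 5 TPM, 12 without the trend, 4 with only the 2 days and 0 without the Xist pair. Members that fell there were 0 in these 6, with a pseudocount of 5 and with quantile normalization. On day 21 against day 12, 757, 1024 and 133 genes passed in either direction, and 10, 13 and 3 members as lower, with no filter, without the trend and without the Xist pair, and 4 members passed as higher with only the 2 days. Between days 26 and 15, 337, 573, 15 and 80 genes passed with no filter, without the trend, with only the 2 days and without the Xist pair. Members that fell there were 2 with no filter, quantile normalization or median scaling, 3 without the trend, 0 with only the 2 days and 1 without the Xist pair. By the F test 781 genes and 13 members passed with no filter, and 462 genes and 13 members without the Xist pair. Fits with no filter tested more genes, and fits of 2 days or without a pair had fewer libraries; otherwise the cause was not tested.

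Leaving out 1 library at a time gave 0 to 53 genes and 0 to 2 members that fell on day 15 against day 12, 2 to 324 genes, 0 to 1 that fell and 0 to 1 that rose on day 21 against day 15, and 0 to 77 genes and 0 to 1 that fell on day 26 against day 21. It gave 275 to 1792 genes, 3 to 27 that fell and 0 to 2 that rose on day 21 against day 12, 413 to 655 genes, 1 to 14 that fell and 0 to 4 that rose on day 26 against day 15, and 773 to 2551 genes, 21 to 35 that fell and 0 to 2 that rose on day 26 against day 12. The F test gave 656 to 1849 genes and 10 to 34 members. A day left with 1 library was assumed to vary like the others. Csf1r on day 26 against day 12 lay between -0.16 (without library 3 of day 12, a change of sign) and 0.33. No paired analysis was possible because the numbers in the column headers are not the replicate numbers of the labels, so which libraries share a labelled number is unknown. Cd163 was fitted only with no filter.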

Other observations

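The fold column of cluster C2 in the authors' deposited table is headed as day 26 over day 21. For 1244 of its 1244 genes the deposited fold matched the ratio of the TPM plus 1 means of day 26 over day 12 within 0.1 in log2, and for 133 (10.7%) it matched day 26 over day 21. The fold changes of the 10 members in that cluster are therefore given without the day named in its header.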
